A study of Drosophila melanogaster with 3 samples.

Results

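The genes described here encode the proteins of the mitochondrial ribosome in Drosophila melanogaster, and the measurement is where the CG14050 protein was found on their promoters. They were taken by symbol: every protein-coding gene whose name starts with mRpL (large subunit) or mRpS (small subunit), which gave 73 of the 13945 protein-coding genes on the 6 chromosome arms of the Ensembl annotation, 47 of the large subunit and 26 of the small. CG14050 carrying an enhanced green fluorescent protein (eGFP) tag was precipitated with an antibody against GFP from whole embryos of the strain CG14050-GFP, aged 0 to 24 hours, and the attached DNA, sonicated and kept at 200 to 800 bp, was sequenced (chromatin immunoprecipitation sequencing, ChIP-seq). The study had 1 group with 3 biological replicates, all of that strain and age, so conditions could not be compared. Embryos of that age span the whole of embryogenesis, and peak lists from whole embryos do not tell which cells carried the protein on a given promoter. The labels name a control experiment, which is not analysed here.

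Mitochondria keep a small genome whose messenger RNAs encode core subunits of the respiratory chain, and these are translated inside the organelle by a ribosome of its own. The RNA of that ribosome comes from the mitochondrial genome, but all of its proteins are encoded in the nucleus, made in the cytosol and imported. Some of the proteins descend from those of the bacterial ribosome and keep the bacterial number, and others were added in the mitochondrial lineage. CG14050 is known only by its annotation number, and its role is not taken up here.

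A gene was called bound when the summit of a passing peak lay within 500 bp of one of its transcription start sites. By that rule 15 of the 73 genes were bound in the conservative list of the authors, 20.5% (exact Clopper-Pearson 95% interval 12 to 31.6%), beside 14.3% of all protein-coding genes. The interval holds the background, but genes are not replicates and it covers counting error only. Whether the share of the group differs from that of all genes was not tested. The signals at the bound members were uneven. In the top 1% of the 3515 conservative peaks lay 4 members, a share of 5.48% of members against 0.258% of all genes. Other bound members lay below the median signal of 158 over all bound genes, down to 89.5 at mRpL18. The bound promoters were also mostly shared ones, since 13 of the 15 faced another protein-coding gene.

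To show what such a promoter looks like, the whole DNA between the starts of both genes is printed for 4 bound members whose starts lie close together. It is also printed for mRpS21, which came nearest to passing in the conservative list without doing so. mRpS21 did pass in another of the authors' lists, so it is not a clear unbound case. The letters are the plus strand of the RefSeq genome sequence on dm6, with capitals on the 11 bases centred on the summit. At mRpL39 the summit is only the midpoint of a 330 bp peak, and at mRpS21 it is that of a region that did not pass in the conservative list. mRpS10 lies right of its stretch (chr3R:15229409-15229664) and Art3, an arginine methyltransferase, left of it. mRpL24 lies left of its stretch (chr2L:4945362-4945578) and betaggt-I, the beta subunit of a geranylgeranyl transferase, right of it. mRpS2 lies left (chr2L:4850420-4850640) and Mon1, part of the exchange factor for Rab7, right. mRpL39 lies left (chr3L:14999667-14999950) and Prosbeta2, a proteasome subunit, right. mRpS21 lies left of its stretch (chr3R:13381810-13382105) and Droj2, a DnaJ-like chaperone, right of it.
mRpS10 and Art3: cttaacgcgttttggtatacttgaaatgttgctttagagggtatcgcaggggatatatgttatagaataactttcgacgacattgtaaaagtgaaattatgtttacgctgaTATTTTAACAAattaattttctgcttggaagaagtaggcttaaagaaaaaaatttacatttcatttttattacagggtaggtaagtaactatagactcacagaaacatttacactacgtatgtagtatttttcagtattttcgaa
mRpL24 and betaggt-I: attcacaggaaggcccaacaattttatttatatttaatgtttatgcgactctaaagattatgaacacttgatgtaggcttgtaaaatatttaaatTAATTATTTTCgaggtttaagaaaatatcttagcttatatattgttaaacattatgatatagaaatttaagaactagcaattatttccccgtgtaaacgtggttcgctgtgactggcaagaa
mRpS2 and Mon1: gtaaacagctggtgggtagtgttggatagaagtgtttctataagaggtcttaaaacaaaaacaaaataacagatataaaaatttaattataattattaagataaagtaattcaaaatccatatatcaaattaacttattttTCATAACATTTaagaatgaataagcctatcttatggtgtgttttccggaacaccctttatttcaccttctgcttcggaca
mRpL39 and Prosbeta2: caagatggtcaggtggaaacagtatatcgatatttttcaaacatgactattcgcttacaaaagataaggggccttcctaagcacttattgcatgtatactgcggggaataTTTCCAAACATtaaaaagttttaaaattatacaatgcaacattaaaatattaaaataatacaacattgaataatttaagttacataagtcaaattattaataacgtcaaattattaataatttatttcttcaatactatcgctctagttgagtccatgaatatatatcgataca
mRpS21 and Droj2: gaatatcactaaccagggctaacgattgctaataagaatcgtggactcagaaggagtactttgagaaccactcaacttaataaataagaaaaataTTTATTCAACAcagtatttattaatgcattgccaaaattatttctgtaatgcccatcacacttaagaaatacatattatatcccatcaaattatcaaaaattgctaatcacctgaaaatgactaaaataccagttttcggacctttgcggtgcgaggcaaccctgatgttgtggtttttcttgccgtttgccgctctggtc
GC content of these stretches was 30.1% for mRpS10, 28.6% for mRpL24, 28.1% for mRpS2, 27.1% for mRpL39 and 35.8% for mRpS21. Each of the 4 bound summits lay 75 to 169 bp from either start. A stretch free of exons and of at most 300 bases existed for 7 bound and 24 unbound members, and its GC content had a median of 30.1% in the bound (27.1 to 36.8%) and 40.4% in the unbound (27.0 to 62.5%). The ranges overlap, and the unbound stretches were also shorter, with a median length of 95 bases against 221.

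For members whose starts lie farther apart, or that have no facing gene within 500 bp, 101 bases around the summit show the site. They are given for mRpS23 (chr2L:13835425-13835525), the member bound farthest from its own start, and for mRpL4 (chr2L:16329165-16329265), which has no divergent partner, again on the plus strand of dm6. Capitals here mark CACTGT, the reverse complement of the word ACAGTG, which had been picked from earlier results of these data.
mRpS23: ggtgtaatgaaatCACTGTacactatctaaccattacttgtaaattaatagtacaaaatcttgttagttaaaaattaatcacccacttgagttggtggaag
mRpL4: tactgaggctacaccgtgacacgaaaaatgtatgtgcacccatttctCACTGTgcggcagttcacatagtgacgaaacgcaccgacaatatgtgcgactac
The match lay 37 bases left of the summit at mRpS23 and overlapped the summit at mRpL4. At mRpL4 the summit is only the midpoint of a 330 bp peak that passed in no replicate list, so that overlap does not place the protein on the word. These were the only 2 of the 15 member summits with that word within 50 bp (13.3%), beside 8.01% of the 1424 conservative peaks at protein-coding starts. GC content was 30.7% around the mRpS23 summit and 48.5% around the mRpL4 summit, the highest of the 15.

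The strongest sites were the same in each replicate. Signal is the height the authors gave each peak, on a scale that is not stated, so it is set side by side within a list only. The replicate lists held 2155, 2433 and 2282 passing peaks, out of 49504, 48710 and 46992 ranked regions, which is the only measure of depth taken here. Medians over all passing peaks were 57.2, 60.6 and 66.7 in the replicates and 134 in the conservative list. In the ranked list behind the conservative list, 63.4% of matched regions had the exact coordinates of a replicate 2 region. Of the regions paired with them, 66.3% had those of a replicate 3 region, and almost none matched replicate 1. The labels derive the conservative list from the alignments of all 3 replicates, so replicate 1 is not taken as independent of its signals.

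**Figure D1:**
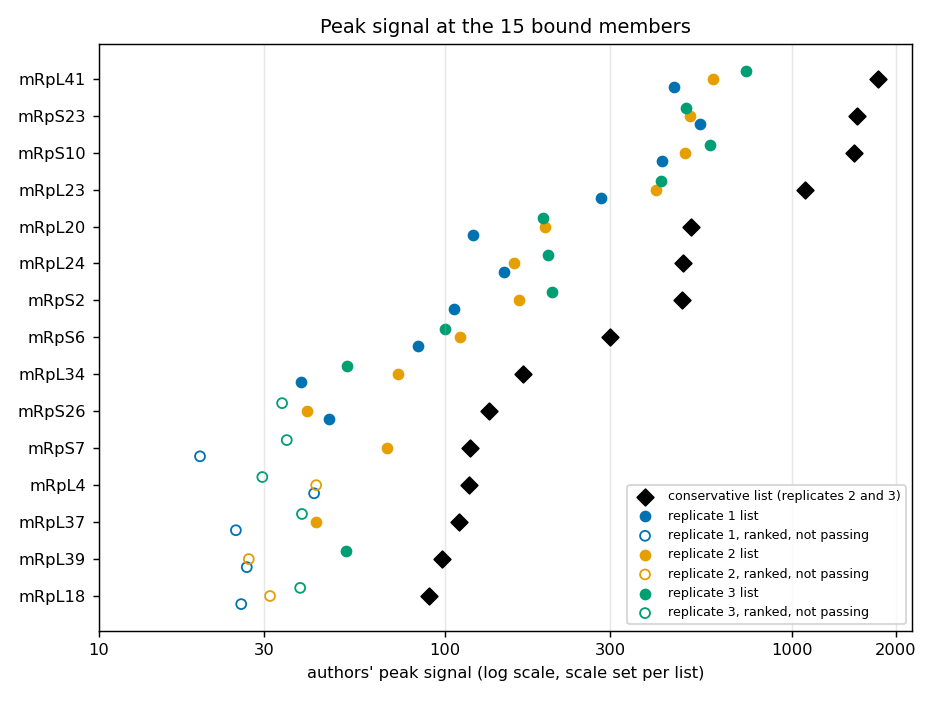
Signal of the authors' peaks (log axis) at the 15 bound members, ordered by the conservative signal; filled points passed in that replicate list and open points were ranked without passing. The 8 members at the top of the plot, from 299 to 1775 in the conservative list, passed in all 3 replicates, and the open points fall among the 6 members with the lowest conservative signal.

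mRpL41 encodes a large-subunit protein without a bacterial counterpart and lies on 2R from 15217024 to 15217617 on the minus strand. Its peak (15217612 to 15217899) had a conservative signal of 1775, rank 6 of 3515, and signals of 458, 594 and 736 in replicates 1, 2 and 3. The ranks there were 10, 6 and 1, so it was the highest peak of the replicate 3 list. The summit lay 129 bp upstream of the start, in intergenic DNA, and moved by 5 bp over the replicates.

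mRpS23, a small-subunit protein added in the mitochondrial lineage, had a conservative signal of 1544 (rank 9) and signals of 545, 509 and 497 in the replicates, at ranks 4, 12 and 14. Its summit lay 403 bp from the start of mRpS23 but 89 bp from that of CenG1A, a GTPase-activating protein for Arf. mRpS10, the counterpart of bacterial S10, had a conservative signal of 1517 (rank 11) and signals of 423, 494 and 583, at ranks 12, 14 and 7. Its summit lay 140 bp from its own start and 117 bp from that of Art3. mRpL23, the counterpart of bacterial L23, which sits at the exit of the peptide tunnel, had a conservative signal of 1090 (rank 28) and signals of 281, 406 and 418, at ranks 41, 25 and 27. It was the only bound member with the summit inside the gene, 70 bp into its own 5′ UTR. Expressed as percentiles of the peaks in each replicate list, the signals of these 4 members had means of 99.7 ± 0.210 for mRpL41, 99.6 ± 0.222 for mRpS23, 99.5 ± 0.150 for mRpS10 and 98.6 ± 0.464 for mRpL23 (SD, n = 3 replicates).

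The next 4 members also passed in every replicate, with lower signals. mRpL20 had 513 in the conservative list and 121, 194 and 191 in the replicates. mRpL24 had 486, and 148, 158 and 198. mRpS2 had 482, and 106, 164 and 203. mRpS6 had 299, and 83.2, 110 and 100. All 4 carry bacterial numbers, mRpS2 and mRpS6 in the small subunit and the others in the large. In these 4, as in mRpL41, mRpS10 and mRpL23, the replicate 1 signal was the lowest of the 3, and replicate 1 also had the lowest list median. Their mean percentiles were 91.5 ± 3.35 for mRpL20, 91.9 ± 1.58 for mRpL24, 89.6 ± 5.15 for mRpS2 and 76.6 ± 4.74 for mRpS6 (SD, n = 3), so mRpL20, mRpL24 and mRpS2 could not be ordered within the spread between replicates.

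Below these the replicates differed. mRpL34 was the last to pass in all 3, with 167 in the conservative list and 38.4, 73.1 and 52.1 in the replicates, and its percentile varied most (32.8 ± 26.7, SD, n = 3). mRpS26 had a conservative signal of 134, passed with 46 in replicate 1 and 40.0 in replicate 2, and was ranked without passing in replicate 3 (33.8). mRpS7, at 118, passed in replicate 2 only (67.8), and its ranked signals were 19.6 in replicate 1 and 34.9 in replicate 3. mRpL37, at 110, passed in replicate 2 only (42.5), and mRpL39, at 97.6, in replicate 3 only (51.8). mRpL4, at 117, and mRpL18, at 89.5, passed in no replicate list. The ranked signals of mRpL4 were 41.8, 42.4 and 29.7, and those of mRpL18 were 25.8, 31.2 and 38.1. These last 7, from mRpL34 down, are the members whose peak is 330 bp wide with the summit at its midpoint, where the summit adds nothing to the peak edges.

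Over the replicate lists, 11 of 73 members were bound in replicate 1 (15.1%, beside 9.53% of all genes), 12 in replicate 2 (16.4%, beside 11.0%) and 10 in replicate 3 (13.7%, beside 10.7%). The mean share was 15.1% ± 1.37 for members and 10.4% ± 0.778 for all genes (SD, n = 3 replicates). In all 3 lists 9 members were bound, 12.3% (95% interval 5.80 to 22.1%), beside 6.87% of all genes. When the peak had to cover the start, 1 member (1.37%) was bound in all 3 lists, beside 1.89% of all genes, so the order turned under that rule. The members' share was above the background in each list, and each list's interval for the members (7.77 to 25.4%, 8.79 to 27.0% and 6.77 to 23.8%) included the background. Genes are not replicates, and these intervals cover counting error only.

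**Figure D2:**
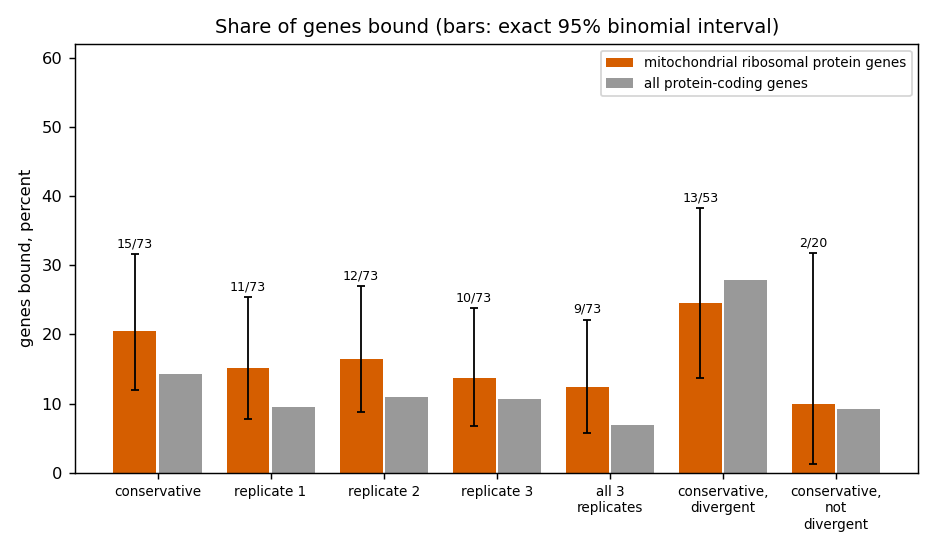
Share of genes bound in percent, members in orange with exact 95% binomial intervals and all protein-coding genes in grey, by list and, at right, for genes with and without a divergent promoter. The members' bars stand above the grey ones in each list, and with divergent genes alone the members' bar (24.5%) lies below the grey one (27.8%).

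Bound genes were spread over both subunits. Of the large-subunit genes 9 of 47 were bound (19.1%) and of the small-subunit genes 6 of 26 (23.1%), with 5 and 4 bound in all 3 replicate lists. Genes with a bacterial number (up to 36 in the large and 21 in the small subunit) were bound in 10 of 42 cases (23.8%) and the other genes in 5 of 31 (16.1%). By chromosome arm, 5 of 12 members were bound on 2L, 3 of 12 on 2R, 5 of 17 on 3L and 2 of 21 on 3R. The shares of all genes on these single arms were not taken, so no difference between arms is read from the counts. On X, 0 of 11 were bound, which allows a share of up to 27.3%, beside 13.3% of all X-linked genes. On the autosomes 15 of 62 were bound (24.2%, 14.2 to 36.7%), beside 14.5% of autosomal genes.

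Most of these genes share their promoter region with a neighbour. A promoter was called divergent when another protein-coding gene on the opposite strand started between 500 bp upstream and 100 bp inside the start. This held for 53 of the 73 members (72.6%), beside 27.5% of all protein-coding genes, and no pair of members faced each other. Divergent promoters were found at 53.4% of all bound genes, 13 of the 15 bound members (86.7%) and 40 of the 58 unbound members (69%). The order among members depended on the distance allowed: with 250 bp in place of 500, 4 bound (26.7%) and 21 unbound members (36.2%) were divergent, beside 26.1% of all bound genes and 14.5% of all genes. Among divergent genes the members were bound in 13 of 53 cases (24.5%, 13.8 to 38.3%), beside 27.8% of all divergent genes. Among genes without a divergent promoter they were bound in 2 of 20 (10%, 1.23 to 31.7%), beside 9.21%. Within each class the members' interval thus held the background, but both intervals were wide. The full group had a higher share than all genes (20.5% against 14.3%) and also a larger proportion of divergent promoters. Whether the promoters account for the higher share was not tested.

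**Figure D3:**
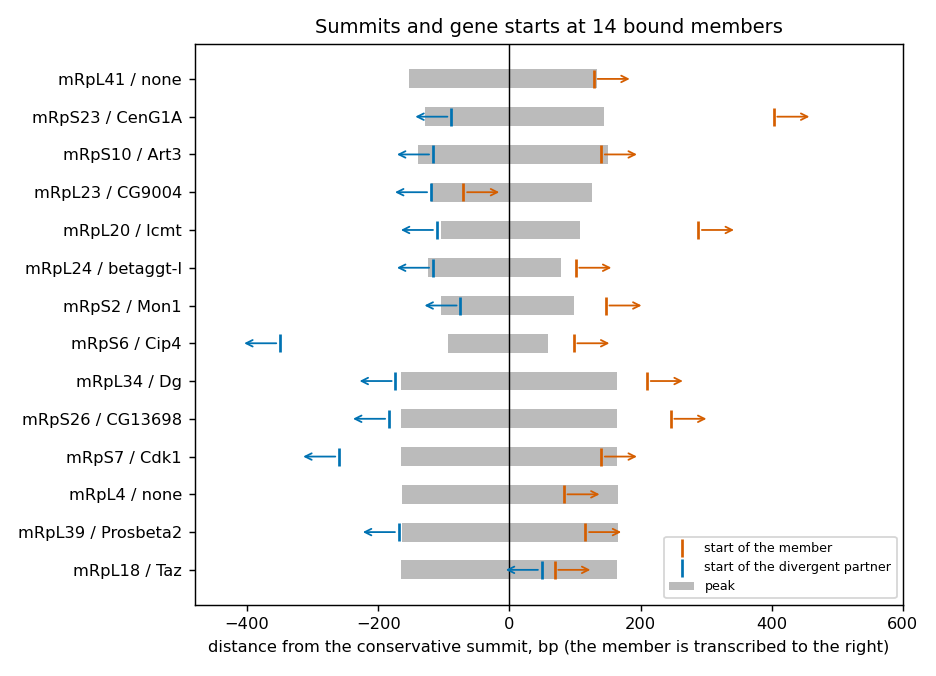
Position of gene starts relative to the conservative summit (0 bp) at 14 of the 15 bound members (mRpL37 is not drawn), with each member transcribed to the right; grey bars are the authors' peaks, orange ticks the member's start and blue ticks the start of the divergent partner. The summit falls between the starts in each divergent promoter drawn except those of mRpL23 and mRpL18.

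Most summits lay upstream of the members' starts, at distances near those over all bound genes. Upstream distance had a median of 140 bp over the bound members and 138 bp over all bound genes, and 14 of the 15 summits were upstream, beside 87.4% over all bound genes. By annotation 13 summits were intergenic and 2 were in a 5′ UTR, that of mRpL23 itself and that of Taz, the tafazzin of cardiolipin remodelling that faces mRpL18 at 20 bp. In 11 of the 13 divergent promoters the summit lay between the starts, and the share over all bound divergent genes was not taken. The median distance over the 13 was 140 bp to the member and 120 bp to the partner, and the summit was nearer the member in 5 and nearer the partner in 8. For mRpS26 this counts its stronger peak (184 bp from CG13698), and its weaker one, with a signal of 38.4, lay nearer the member, at 44 bp. Counting mRpL41 and mRpL4, which have no facing gene in range, the member's own start was the nearest to the summit in 7 of 15 cases. Among divergent genes alone this was so for 5 of 13 bound members (38.5%), beside 53.4% of bound genes. Further partners were Icmt, the methyltransferase of prenylated proteins (mRpL20), Cip4, an F-BAR membrane protein (mRpS6), Dg, dystroglycan (mRpL34), Cdk1, the mitotic kinase (mRpS7), and the genes CG9004 (mRpL23) and CG13698 (mRpS26). The peak lists do not tell which of the facing genes, if either, responds to the protein.

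Starts of bound divergent members were farther apart, with a median of 291 bp, than those of unbound divergent members (217 bp), and the median over all divergent genes was 242 bp. With starts up to 200 bp apart, a limit chosen after the values were seen, 2 of 22 members were bound (9.09%, 1.12 to 29.2%), beside 21.5% of all such genes. With starts over 200 bp apart 11 of 31 were bound (35.5%, 19.2 to 54.6%), beside 32.1%. All genes thus showed the same order as the members, and both intervals for the members included the background.

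In strength the bound members were uneven, with a few very high peaks. Their conservative signal had a median of 299, beside 158 over all bound genes, 156 over the 1424 conservative peaks at protein-coding starts and 134 over all conservative peaks. That median depended on the rule: it was 167 with summits within 1000 bp (158 over all genes bound by that rule), and 117 when the peak had to cover the start (133 over all such genes), which turns the order. The 4 strongest exceeded 1012, the limit of the top 1% of peaks, which 36 protein-coding genes did in all. The partners CenG1A, Art3 and CG9004 are among these 36 through the same peaks. In the top 10% (351 and above) were 7 members, 9.59% of the 73 (3.94 to 18.8%), beside 2.14% of all genes. The 15 peaks were distinct, and mRpS26 alone had a pair of conservative peaks in range. In the replicate lists the bound members' median was 121, 161 and 200, against 57.2, 60.6 and 66.7 for all peaks, so a median above that of all peaks was seen in each replicate. Medians over all bound genes or over promoter peaks alone were not taken in the replicate lists.

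Under the passing peaks lay a longer tail of weak regions. The conservative ranked list, with 63709 regions, placed a region within 500 bp of 46 of the 73 members (63.0%), beside 53.3% of all genes. Of the genes with such a region 15 of 46 members passed (32.6%, 19.5 to 48.0%), beside 26.9% of all genes. The 31 members with a region that did not pass had signals from 9.26 to 91.8 with a median of 51.2, beside a median of 29.3 over all ranked regions. The strongest 6 were mRpL32 (91.8, facing qless, which makes the side chain of coenzyme Q), mRpS21 (81.2), mRpS18B (79.5), mRpS11 (79.2, facing Ns1, a nucleostemin), mRpS24 (76.2, facing Apc2) and mRpL21 (73.7, facing the helicase gene rept). In the list joined from replicates 1 and 2 mRpL32 and mRpS24 did pass, and in that from replicates 1 and 3 mRpS11 and mRpS21.

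**Figure D4:**
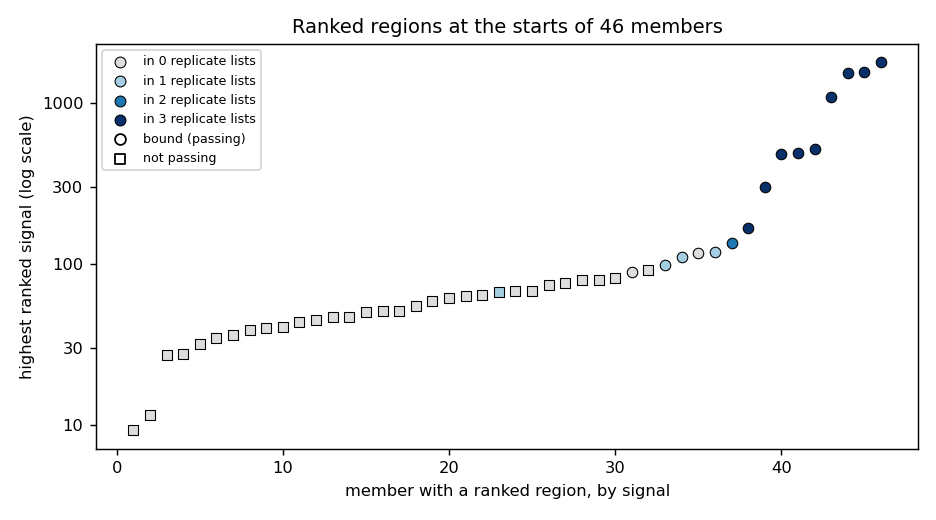
Highest ranked signal (log axis) at each of the 46 members with a region of the conservative ranked list within 500 bp, ordered by signal; circles passed, squares did not, and darker points passed in more replicate lists. The signal rises slowly to about the strongest non-passing member (91.8) and steeply over the 9 members bound in all 3 replicates.

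The members just either side of the threshold were close in signal. The authors' lists passed regions at an irreproducible discovery rate (IDR, an estimate of how many of the regions ranked that high fail to recur between lists) of at most 0.01. mRpS21 missed it at 0.0103 with a signal of 81.2, and mRpL18 passed at 0.00201 with 89.5. mRpL32 had a slightly higher signal than mRpL18 and an IDR of 0.187, its replicate signals being 35.0, 34.3 and 20.3. mRpL19 was the only member that passed in a replicate list (40.7 in replicate 1) and not in the conservative list, where its signal was 66.5 and its IDR 0.713. For 27 members the conservative ranked list held no region in range, and 16 of these had a ranked region in a replicate list, with signals from 8.57 to 36.9 (the highest at mRpL47 in replicate 1). None of those regions passed, and the share over all genes was not taken, so the count is not read as binding. Of the unbound members, mRpS25 at 595 bp and mRpL55 at 729 bp had a conservative summit within 1000 bp.

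Words of known promoter elements were searched on both strands, in the 250 bases before to 50 after each gene's canonical start and within 50 bp of the summits. The DNA replication-related element (DRE, TATCGATA, the site of the factor DREF) was in the promoters of 15 of 73 members (20.5%), beside 8.94% of all protein-coding promoters. The E-box CAGCTG was in 40 of 73 (54.8%), beside 17.9%. Neither word set the bound members apart: the DRE was in 4 of the 15 bound (26.7%) and 11 of the 58 others (19%), and CAGCTG in 6 bound (40.0%) and 34 others (58.6%). Of all bound genes 12.3% held the DRE and 24.4% CAGCTG. The core of motif 1 of housekeeping promoters (GGTCACAC) was in 0 bound and 8 other members (13.8%), beside 7.54% of all. The TATA word TATAAA, short and frequent by composition, was in 40.0% of bound members, 48.3% of others and 45.3% of all. The word ACAGTG was in 26.7%, 15.5% and 13.9%, and in 22.5% of all bound genes. The E-box CACGTG was in 5 members (6.85%, beside 4.26% of all promoters and 5.66% of those of all bound genes). GAGAGAG was in 1 (1.37%, beside 6.20% of all promoters). The CTCF core AGNTGGCGC and the ETS word CCGGAAG were in none (1.23% and 1.08% of all). Some of these words can overlap in a sequence, and each was counted on its own.

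**Figure D5:**
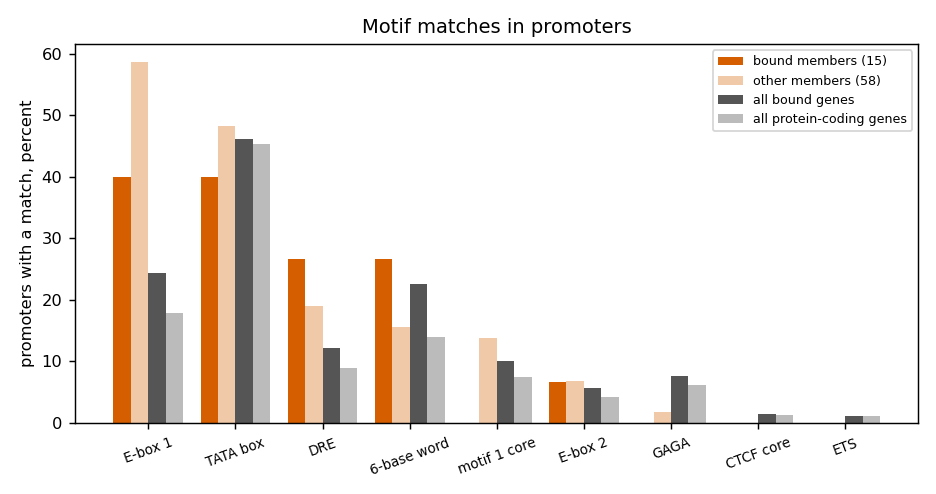
Share of promoters (300 bases) with at least 1 match to each of 9 words, in percent, for bound members, other members, all bound genes and all protein-coding genes; E-box 1 is CAGCTG, E-box 2 is CACGTG and the 6-base word is ACAGTG. Members of either kind stand above all genes for E-box 1, the DRE, E-box 2 and the 6-base word.

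At the summits themselves these words were scarce. No member summit had a DRE within 50 bp, beside 2.95% of the 1424 promoter peaks. Where a DRE lay within 500 bp of the summit, it was 84 bp away at mRpL39, whose printed stretch holds TATCGATA near each of its ends, 102 bp at mRpL4, 194 bp at mRpS23 and 278 bp at mRpL20. CAGCTG overlapped the 50 bp on either side in 1 of 15 (mRpL18), beside 3.58%, and the nearest match lay 93 bp from the summit at mRpS2, 110 bp at mRpL34, 112 bp at mRpS6, 119 bp at mRpL23, 120 bp at mRpL41, 121 bp at mRpL24 and 347 bp at mRpS26. TATAAA was near 2 of 15 (mRpL23 and mRpS7; 13.3%, beside 24.4%). The 101 bases around member summits had a median GC content of 25.7%, lower than the 30.7% of promoter peaks and the 31.7% of all conservative peaks. The promoters were AT-rich as well, with a median GC content of 32.0% in bound members, 35.7% in the others and 38% in all genes. The part of base composition in the binding at these promoters was not tested.

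Other genes of mitochondrial gene expression were looked at with the same rule, and 36 of a list of 38 symbols had a match in the annotation. Of these, 4 were bound (11.1%), near the 14.3% of all genes. Both mitochondrial ribosomal proteins with other names, tko and bonsai, were unbound, as were all 8 translation factors. Among genes of mitochondrial transcription and RNA 3 of 11 were bound. PNPase, the polynucleotide phosphorylase of mitochondrial RNA decay, had a conservative signal of 1781 (rank 5, next above mRpL41) and signals of 497, 614 and 680 in the replicates, with its summit inside the gene (−78 bp on the scale of upstream distance). SLIRP2, an RNA-binding protein of the family that stabilises mitochondrial messenger RNAs, had 972 (rank 40) and 277, 348 and 340. Its summit lay 113 bp upstream, and it faces Mkk4, a kinase of the JNK pathway. SLIRP1 on X was weaker, at 157, and passed with 44.3 in replicate 1 and 80.7 in replicate 2 and not in replicate 3. Of 15 mitochondrial aminoacyl-tRNA synthetases 1 was bound, ProRS-m, at 107, with 43.7 in replicate 2 and 55 in replicate 3 and no passing peak in replicate 1.

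The cytosolic ribosome gives a comparison within the same lists. Of 92 genes whose symbols start with RpL or RpS, 54 were bound in the conservative list (58.7%), against 20.5% of the mitochondrial group. The shares in replicates 1, 2 and 3 were 53.3%, 41.3% and 51.1% for cytosolic genes and 15.1%, 16.4% and 13.7% for mitochondrial ones, a difference of 33.5 percentage points ± 7.47 (SD, n = 3). The cytosolic share was higher in 3 of 3 replicates. Bound cytosolic genes had a median conservative signal of 185 and a maximum of 494, which 5 mitochondrial members exceeded. The order of the medians was not stable: with summits within 1000 bp they were 185 for cytosolic and 167 for mitochondrial genes, and with peaks covering the start 174 and 117. Fewer cytosolic genes were divergent, 36 of 92 (39.1%), and of those without a divergent promoter 28 of 56 were bound, beside 2 of 20 in the mitochondrial group.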

How the data were processed

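ChIP-seq peak lists from 3 biological replicates of whole embryos were used as the authors deposited them. Each region has a signal, the height the authors gave the peak on an unstated scale, and the deposited ranked lists hold a global IDR as a −log10 value, with thresholded lists at an IDR of at most 0.01. The build is dm6, per the labels. Aligner, caller and read depth were not given in the sources used here. The labels derive the across-replicate lists from the alignments of all 3 replicates and do not state which replicates each list joins. This was read from exact coordinates, and for the conservative list most matched regions were those of replicates 2 and 3.

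Summits (peak start plus the deposited offset) on the 6 chromosome arms were set against every start of protein-coding transcripts in Ensembl BDGP6.54, release 115, with sequence from RefSeq on the same build (0 peak ends past the reference on each arm). Scripts used Python 3.11.15, numpy 2.4.6, pandas 2.3.3 and scipy 1.17.1. The rules for bound and divergent genes were tested on simulated peaks. With 1 group there was no contrast to test, so counts and medians stand beside those of all protein-coding genes, with exact 95% binomial intervals that cover counting error only. A count of 0 allows 3 counts of the total. The genes, lists, words and rules were chosen with earlier results of these data known. Every bound member was named; replicate values were given for the 12 with the highest signal, for bound members in no replicate list and for members in a replicate list alone, and the 6 strongest non-passing members were named; those of mRpL37 and mRpL39 and the values at the threshold were added after they were seen. The alternatives were the distance to the start, canonical starts, peaks covering the start, the other across-replicate lists, peaks at or above the median signal, the divergent distance and leaving out each replicate. The partner of mRpL37 is not reported here.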

Additional observations from a re-analysis of the deposited data

How the results depend on the processing

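Of 36 alternatives 25 left a result within 1.5 times its count or within the replicate spread and 11 moved it. Requiring the peak to cover the start, as 9 of the 15 bound members' peaks did (7.11% of all genes), gave 7 bound divergent members, 1 member in all 3 replicate lists (1.37%, now below the 1.89% of all genes), a mean replicate share of 4.57% (4.55% of all genes) and a median signal of 117, now below that of all genes so bound (133); mRpL20, mRpL24, mRpL34, mRpS2, mRpS23 and mRpS6 were lost. With only peaks at or above the median signal 9 members were bound (8.57% of all genes), 8 of them divergent. A distance of 200 bp gave 12 bound members (16.4%, beside 9.97% of all genes). The mean replicate share was then 11.4% (7.17% of all genes) and the median signal 208 (158 over all genes so bound). A distance of 1000 bp gave 17 bound members (23.3%, beside 16.9% of all genes) and a median of 167 (158 over all genes so bound). Divergence within 250 bp held for 4 bound members in place of 13 and for 21 unbound ones, which turned the order of their shares (26.7% and 36.2%). The lists joined from replicates 1 and 2 and from replicates 1 and 3 gave 16 bound members each, beside 12.9% and 13.1% of all genes. In each, 14 were shared with the main 15, and mRpS7 was lost in both. Gained were mRpL32 and mRpS24 with replicates 1 and 2, and mRpS11 and mRpS21 with replicates 1 and 3. The list from the data of all replicates gave 13, without mRpL18 and mRpL4, beside 13.9% of all genes. Leaving out 1 replicate gave 9 to 10 members in every remaining list, beside 7.56 to 8.51% of all genes. The mean share was then 14.4 to 15.8%, beside 10.1 to 10.9% of all genes. No paired analysis was possible because there was 1 group. Read depth was not used here, and a member without a region in the conservative ranked list is not shown to lack the protein. Of those 27, 16 were ranked in a replicate list without passing, a count that has no share over all genes beside it.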
